A study of Homo sapiens with 10 samples.

Results

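The genes described here are those of major histocompatibility complex (MHC) class I and its peptide-loading machinery, measured in NB4, a cell line established from an acute promyelocytic leukemia. They were the protein-coding entries of the deposited tables named HLA-B, HLA-C, HLA-E, HLA-F, B2M, TAP1, TAP2, TAPBP and NLRC5, which are 9 of the 60603 genes listed and of the 19975 listed as protein-coding. All 9 were found in both tables.

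mRNA was sequenced in 2 separate experiments on the same line. In the GSE1 knockdown experiment, cells were infected with lentivirus carrying the pLKO.1 puro vector, either empty (EV) or with the hairpin shA1 or shB2 against GSE1, and were harvested after 48 h. In the LSD1 inhibition experiment, cells for which no vector is named received DMSO or 2 µM MC2580, an inhibitor of the histone demethylase LSD1 (gene KDM1A), for 24 h. Each of the 5 groups had 2 libraries, so 6 libraries belong to the first experiment and 4 to the second, and every group is the same line. All 3 groups of the first experiment, EV included, carry the lentiviral vector. The study describes the libraries of a group as biological replicates.

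The values used were the base means, which are counts scaled by the library size factors of DESeq2 and averaged over every library of an experiment. EV, shA1 and shB2 therefore share a single number for each gene, as do DMSO and MC2580. No value per library was used, so none of the values below has a standard deviation, no difference was tested. The deposited columns in which the authors compare each hairpin and the inhibitor with its control were left out, so those comparisons are not given here. The depth of each library is unknown for the same reason. The base means summed to 40543130 in the knockdown experiment and 41201112 in the LSD1 inhibition experiment.

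MHC class I molecules show fragments of a cell's own proteins at its surface, where cytotoxic T cells read them. Each consists of a heavy chain, encoded by an HLA gene, and the invariant light chain beta-2-microglobulin. Peptides cut by the proteasome are pumped into the endoplasmic reticulum by the TAP transporter, which is a dimer of TAP1 and TAP2. Tapasin, the product of TAPBP, bridges TAP to the empty heavy chain and helps it to select a peptide. NLRC5 is a transactivator that works at the promoters of class I genes. Tumor cells that show less class I escape T cells, whereas natural killer cells respond to its loss.

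Of the 9 genes, 7 lie on chromosome 6. On GRCh38, GENCODE release 44 places HLA-F at chr6:29722775-29738528 and HLA-E at chr6:30489509-30494194 on the plus strand. HLA-C at chr6:31268749-31272130 and HLA-B at chr6:31353872-31367067 lie on the minus strand, with 81741 bases between them. TAP2 at chr6:32821833-32838739 and TAP1 at chr6:32845209-32853816 are neighbours on the minus strand with 6469 bases between them, and TAPBP is at chr6:33299694-33314284 on the same strand. B2M at chr15:44711358-44718851 and NLRC5 at chr16:56989485-57083531 lie elsewhere, on the plus strand.

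Class I promoters are known for short elements shared by many of the genes, among them interferon-response, CCAAT and cyclic-AMP-type motifs, the last lying in the stretch where NLRC5 acts. RefSeq windows on GRCh38.p14, from 250 bases before to 50 bases after an annotated start, were held for 7 of the 9 genes, the exceptions being HLA-E and NLRC5. The 250 bases before the start of HLA-B and HLA-F are shown because these heavy chain genes lie at the opposite ends of the measured heavy chain levels, and those of TAP1, TAP2 and TAPBP because these are the genes of peptide transport and loading. The sequences are those of the reference genome, not of NB4, and read 5′ to 3′ on the strand of the gene. Capitals mark matches on either strand to GAAANNGAA, to the CCAAT box, to the letters TGACG and to GGGATTCC.

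HLA-B, chr6:31357180-31357429, minus strand: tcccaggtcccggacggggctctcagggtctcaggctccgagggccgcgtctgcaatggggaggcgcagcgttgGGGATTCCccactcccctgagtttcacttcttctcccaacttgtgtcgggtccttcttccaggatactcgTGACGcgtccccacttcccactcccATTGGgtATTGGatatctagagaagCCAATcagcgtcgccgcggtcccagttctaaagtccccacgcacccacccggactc
HLA-F, chr6:29723184-29723433, plus strand: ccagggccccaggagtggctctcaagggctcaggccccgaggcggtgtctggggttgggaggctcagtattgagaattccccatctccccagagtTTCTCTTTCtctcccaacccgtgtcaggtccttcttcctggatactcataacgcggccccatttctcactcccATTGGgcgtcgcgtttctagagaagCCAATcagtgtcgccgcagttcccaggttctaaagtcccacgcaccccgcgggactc
TAP1, chr6:32853705-32853954, minus strand: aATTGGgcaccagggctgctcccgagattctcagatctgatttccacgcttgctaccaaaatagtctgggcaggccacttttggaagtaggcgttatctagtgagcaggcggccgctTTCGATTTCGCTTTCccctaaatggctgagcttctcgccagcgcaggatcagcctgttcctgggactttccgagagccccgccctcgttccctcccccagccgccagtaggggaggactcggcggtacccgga
TAP2, chr6:32838740-32838989, minus strand: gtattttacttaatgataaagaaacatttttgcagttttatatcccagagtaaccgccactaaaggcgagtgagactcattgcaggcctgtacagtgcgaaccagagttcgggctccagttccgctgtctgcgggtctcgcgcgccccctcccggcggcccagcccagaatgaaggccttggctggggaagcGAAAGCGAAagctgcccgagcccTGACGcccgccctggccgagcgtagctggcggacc
TAPBP, chr6:33314079-33314328, minus strand: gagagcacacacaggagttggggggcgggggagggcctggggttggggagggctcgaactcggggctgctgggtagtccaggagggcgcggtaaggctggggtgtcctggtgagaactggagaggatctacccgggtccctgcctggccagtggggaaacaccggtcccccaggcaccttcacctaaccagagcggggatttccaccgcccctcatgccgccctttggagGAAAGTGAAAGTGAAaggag

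Searched on both strands, GAAANNGAA, a core of the interferon-stimulated response element, occurred in the windows of 5 of the 7 genes, namely B2M, HLA-F, TAP1, TAP2 and TAPBP. Among all 35116 RefSeq windows of this length, 8.11% held it. Members are counted by gene here, whereas the percentages are of windows. The TAPBP window held 2 overlapping copies, which began 20 and 14 bases before the start. The TAP1 window shown also held 2 overlapping copies, which began 133 and 127 bases before the start. A further RefSeq window of TAP1, at chr6:32852712-32853011, held no match to any of the motifs. In TAP2 a single copy began 58 bases before the start. HLA-B and HLA-C had no match to these letters, and other forms of the element were not searched for. CCAAT, the letters bound by NF-Y, was found for 5 genes (B2M, HLA-B, HLA-C, HLA-F and TAP1) against 34.6% of all windows. TGACG, part of a cyclic-AMP response element, was in 4 (B2M, HLA-B, HLA-C and TAP2) against 24.6%. GGGATTCC, a form of the NF-kB site, was in HLA-B alone among these genes and in 1.12% of all windows. Other forms of that site were not searched for, so a window without these letters may still hold one. The windows of HLA-B and HLA-C were identical at 90.9% of aligned bases, and those of HLA-B and HLA-F at 82.4%. A match is a matter of letters, and binding was not measured here.

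Levels were compared between genes as base mean per kilobase of the longest annotated protein-coding transcript. Each was ranked among the protein-coding genes whose base mean was 10 or more, 12429 in the knockdown experiment and 12404 in the LSD1 inhibition experiment. The light chain was the most abundant of the 9 transcripts, followed by the heavy chains HLA-B, HLA-E and HLA-C, then NLRC5, TAP1, TAPBP and TAP2, with HLA-F last. This order was the same in both experiments. Without a spread over libraries, it cannot be said which neighbours in it differ beyond replicate error. The median percentile of the 8 genes at or above this limit was 74.1 in the knockdown experiment and 73.0 in the LSD1 inhibition experiment.

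B2M, the light chain of class I molecules, had a base mean of 18952 in the knockdown experiment and 18038 in the LSD1 inhibition experiment. Per kilobase this was 17532 and 16686, at percentiles 98.9 and 98.7. Per kilobase, B2M was 3.27 times the sum of HLA-B, HLA-C and HLA-E in the knockdown experiment and 3.24 times in the LSD1 inhibition experiment. The light chain transcript thus exceeded the measured heavy chains summed in both.

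HLA-B, a classical heavy chain that presents peptides to CD8+ T cells, had base means of 7849 (knockdown) and 8424 (LSD1 inhibition), or 2579 and 2768 per kilobase, at percentile 91.3 in each. HLA-E, a non-classical heavy chain that displays leader peptides of other class I molecules to NKG2A receptors of natural killer cells, had base means of 4385 and 3633, or 1721 and 1426 per kilobase, at percentiles 86.3 and 83.2. HLA-C, a classical heavy chain and the main ligand of inhibitory KIR receptors, had base means of 1652 and 1492, or 1063 and 960 per kilobase, at percentiles 78.5 and 76.5. HLA-B thus had the highest of these levels and HLA-C the lowest, in each experiment. Of the 3 summed per kilobase, HLA-B made up 48.1% in the knockdown experiment and 53.7% in the LSD1 inhibition experiment. The share of HLA-E was 32.1% and 27.7%, and that of HLA-C 19.8% and 18.6%.

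The distance between HLA-B and the other heavy chains depended on the transcript taken for its length. Its longest annotated coding transcript has 3043 bases, while its MANE Select transcript, the representative that RefSeq and GENCODE agreed on, has 1536. With MANE Select lengths for every gene, a choice made after the data were seen, HLA-B stood at 5110 and 5485 per kilobase. It was then 4.77 and 5.67 times HLA-C, against 2.43 and 2.88 times with the longest transcripts. HLA-B then made up 64.7% (knockdown) and 69.6% (LSD1 inhibition) of HLA-B, HLA-C and HLA-E summed. B2M was then 2.54 and 2.43 times that sum, lower than with the longest transcripts. The order of the 9 genes was the same with both lengths. With the median length of a gene's coding transcripts instead, NLRC5 ranked above HLA-E and HLA-C, at percentile 76.2 against 75.4 and 65.7 in the knockdown experiment and 75.6 against 72.3 and 64.7 in the LSD1 inhibition experiment.

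HLA-F, a non-classical heavy chain with restricted surface expression, had a base mean of 0.267 in the knockdown experiment and was listed at 0 in the LSD1 inhibition experiment. No fold between experiments was computed for it. The annotated genes that overlap its span, the antisense HLA-F-AS1 among them, were all listed at 0 in both experiments.

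Heavy chain genes resemble each other, which bears on how reads are divided among them. The coding sequences of HLA-B and HLA-C were identical at 92.5% of aligned bases, those of HLA-B and HLA-E at 86.8%, and those of HLA-E and HLA-F at 84.6%. Of the windows of 50 bases in the MANE Select transcript of HLA-B, 2.56% occurred in a transcript of another gene. The same share was 6.76% for HLA-C, 6.16% for HLA-E and 1.89% for HLA-F. It was 7.09% for TAPBP and 1.18% for TAP1, while B2M and NLRC5 shared none. Counting other HLA genes alone, the share was 2.56% for HLA-B, 6.76% for HLA-C, 4.76% for HLA-E and 1.68% for HLA-F. It was 0% for TAPBP, whose shared windows lay in genes outside the HLA family. RSEM assigns such reads by estimation, and how far the alleles of NB4 depart from the reference genome was not tested. The levels of the heavy chains are uncertain to that extent.

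**Figure D1:**
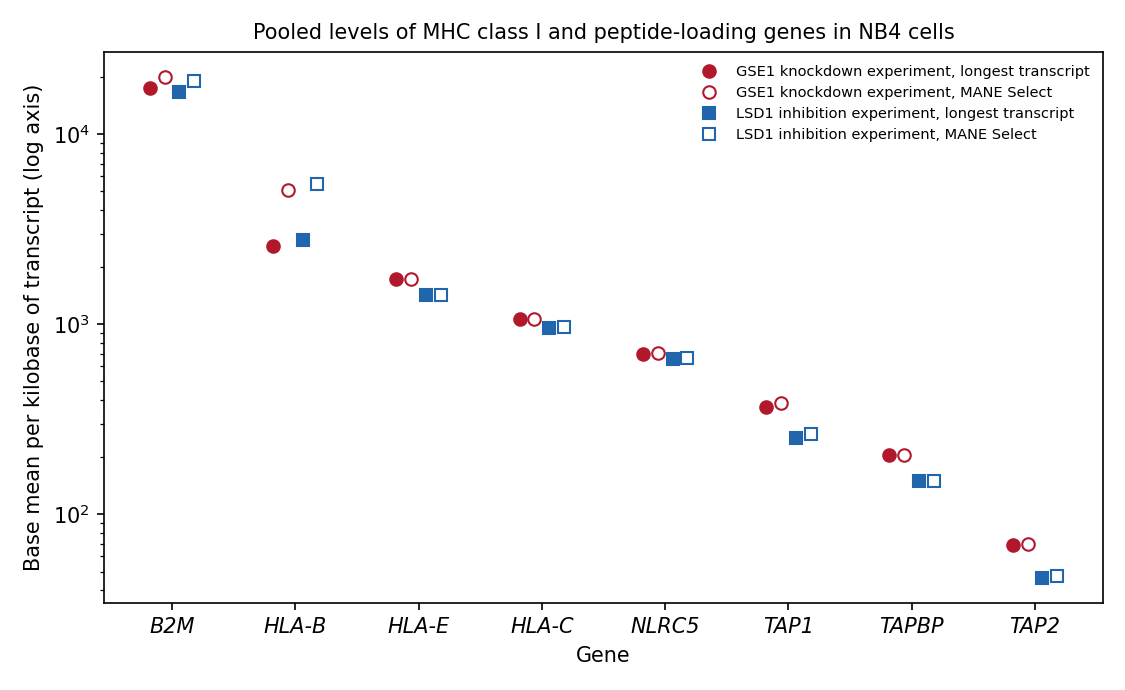
Base mean per kilobase of transcript (log axis) for the 8 class I and peptide-loading genes whose base mean was 10 or more, in the GSE1 knockdown (red circles) and LSD1 inhibition (blue squares) experiments. Filled symbols use the longest coding transcript and open symbols MANE Select; each symbol is a mean over all libraries of an experiment, with no error available, and between these lengths HLA-B moves the most, from 2579 to 5110 in the knockdown experiment.

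TAP1, which with TAP2 forms the peptide channel, had base means of 1029 (knockdown) and 705 (LSD1 inhibition), or 368 and 252 per kilobase, at percentiles 54.5 and 48.5. TAP2 had base means of 395 and 266, or 69.1 and 46.5 per kilobase, at percentiles 24.3 and 21.1. Per kilobase, TAP1 was 5.33 times TAP2 in the knockdown experiment and 5.43 times in the LSD1 inhibition experiment. TAPBP had base means of 704 and 517, or 204 and 150 per kilobase, at percentiles 41.6 and 37.9. It stood at 0.554 and 0.594 of TAP1. In both experiments the transport and loading genes lay below each of the heavy chains HLA-B, HLA-C and HLA-E.

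The TAP2 values are limited by an overlapping gene. AL669918.1, a second protein-coding entry on the same strand at chr6:32813767-32838822, covers the span of TAP2 and had base means of 371 (knockdown) and 442 (LSD1 inhibition). Of the 50-base windows of the TAP2 transcript, 35.3% also occur in a transcript of another gene. How reads were divided between both entries was not tested. With both entries summed over the length of TAP2, chosen after the data were seen, the level was 134 per kilobase (knockdown) and 124 (LSD1 inhibition), at percentiles 33.6 and 34.5, and TAP1 was then 2.75 and 2.04 times as high. TAP1 overlaps PSMB9, an immunoproteasome subunit on the opposite strand with base means of 668 and 624, and the kit used does not mark strand.

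NLRC5 had base means of 4785 (knockdown) and 4504 (LSD1 inhibition), or 701 and 660 per kilobase, at percentiles 69.8 and 69.4. The transactivator was thus above TAP1, TAP2 and TAPBP and below HLA-C in both experiments on the longest transcripts, and above HLA-C on the median length.

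The remaining comparison set both experiments side by side. For each gene, its share of all summed base means in the knockdown experiment was divided by its share in the LSD1 inhibition experiment. The tables were normalized separately, and the experiments differ in virus, time and compound, which cannot be told apart, so the ratio describes the experiments and is not an effect of GSE1 or of LSD1. Among the 12354 protein-coding genes whose base mean reached 10 in both, 15.1% were higher by over 1.5-fold in the knockdown experiment and 6.94% were lower by over 1.5-fold. The median log2 ratio of all these genes was 0.09, with quartiles of -0.21 and 0.40.

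Of the 8 class I and loading genes compared, 1 was higher past 1.5-fold, 0 were lower, and 7 lay within it. Their median log2 ratio was 0.23, against 0.09 for all genes. HLA-F was the gene that could not be compared. The 9 genes together held 0.0980% of the summed base means in the knockdown experiment and 0.0912% in the LSD1 inhibition experiment.

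The largest of the 8 ratios were those of peptide transport and loading. The share of TAP2 was 9.75 ppm of the summed base means in the knockdown experiment and 6.46 ppm in the LSD1 inhibition experiment, a ratio of 1.51 (log2 0.59), just past the limit. That of TAP1 was 25.4 and 17.1 ppm, a ratio of 1.48 (log2 0.57), just within it. That of TAPBP was 17.4 and 12.5 ppm, a ratio of 1.38 (log2 0.47). These genes stood at percentiles 85.2, 84.2 and 79.0 of all ratios. With TAP2 and AL669918.1 summed, chosen after the data were seen, the ratio was 1.10 (log2 0.14), since AL669918.1 alone had a ratio of 0.853. TAP1 summed with PSMB9 gave 1.30.

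The heavy and light chains and the transactivator lay nearer to the middle of all genes. HLA-E had 108 and 88.2 ppm, a ratio of 1.23 (log2 0.29), and HLA-C had 40.7 and 36.2 ppm, a ratio of 1.13 (log2 0.17). NLRC5 had 118 and 109 ppm, a ratio of 1.08 (log2 0.11), and B2M had 467 and 438 ppm, a ratio of 1.07 (log2 0.09). HLA-B, at 194 and 204 ppm, was the single gene of the 8 with a ratio below 1, at 0.947 (log2 -0.08). B2M and NLRC5 stood at percentiles 50.5 and 51.9 of all ratios and HLA-B at percentile 35.4. Scaling by the median ratio of genes instead of by the sums brought B2M to a log2 ratio of 0.00 and NLRC5 to 0.02, so that neither has a direction apart from the scaling.

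**Figure D2:**
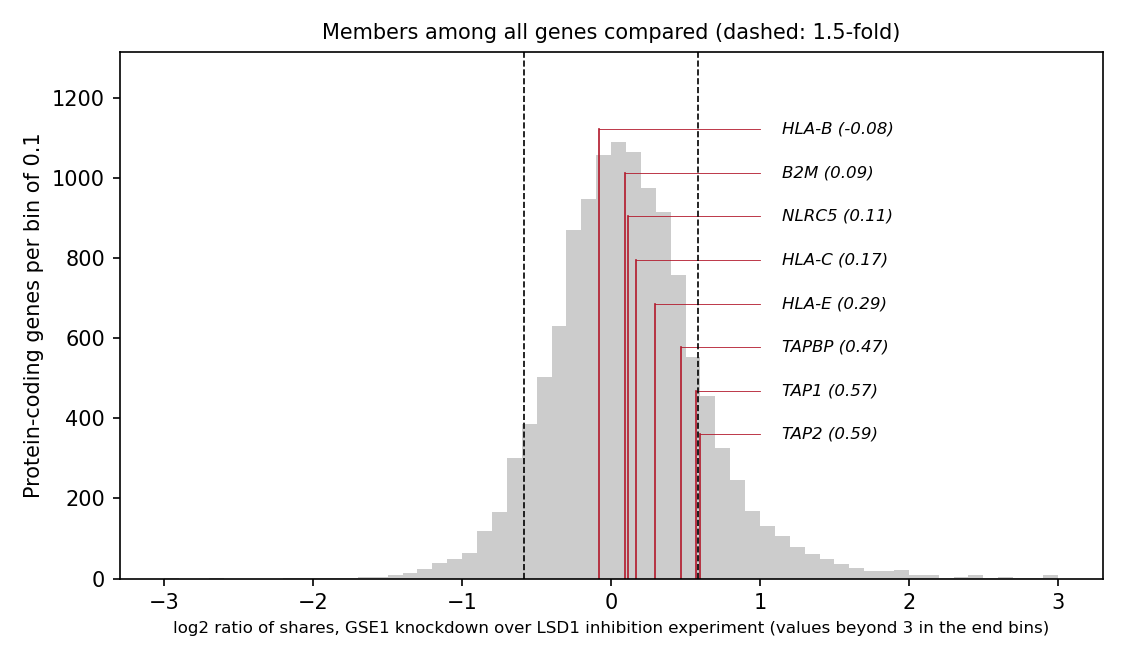
Histogram of the log2 ratio of shares (knockdown experiment over LSD1 inhibition experiment) of 12354 protein-coding genes, in bins of 0.1, with the 8 class I and loading genes as red lines and 1.5-fold as dashed lines. TAP2 at 0.59 and TAP1 at 0.57 sit on either side of the upper dashed line, and HLA-B at -0.08 is the only one of the 8 below 0.

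A wider list of 20 genes of antigen processing and class I regulation was described in the same way: proteasome and peptide-trimming genes, endoplasmic reticulum chaperones, and the transcription factors of class I promoters. All 20 reached a base mean of 10 in both. Of these, 3 were higher past 1.5-fold, beside 15.1% of all genes, and 0 were lower, beside 6.94%. The median log2 ratio was 0.19. The 3 were ERAP1 and ERAP2, aminopeptidases that trim peptides in the endoplasmic reticulum, and IRF2, an interferon regulatory factor. ERAP1 had the highest ratio, with base means of 1500 and 853 and a ratio of 1.79 (log2 0.84). ERAP2 was at 1.62 and IRF2 at 1.52. The lowest ratio was that of RFXANK, a subunit of the RFX complex at MHC promoters, with base means of 3169 and 4263 and a ratio of 0.756 (log2 -0.40).

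By level, the highest of this list was CALR, which encodes calreticulin, a chaperone of the loading complex and of many other glycoproteins, at 80841 per kilobase in the knockdown experiment and 98718 in the LSD1 inhibition experiment. The lowest was TAPBPL, which encodes a tapasin-related peptide editor, at 137 and 125 per kilobase. CALR was 396 times TAPBP per kilobase in the knockdown experiment and 659 times in the LSD1 inhibition experiment, while TAPBP and TAPBPL differed far less, at 204 and 137 per kilobase in the former.

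**Figure D3:**
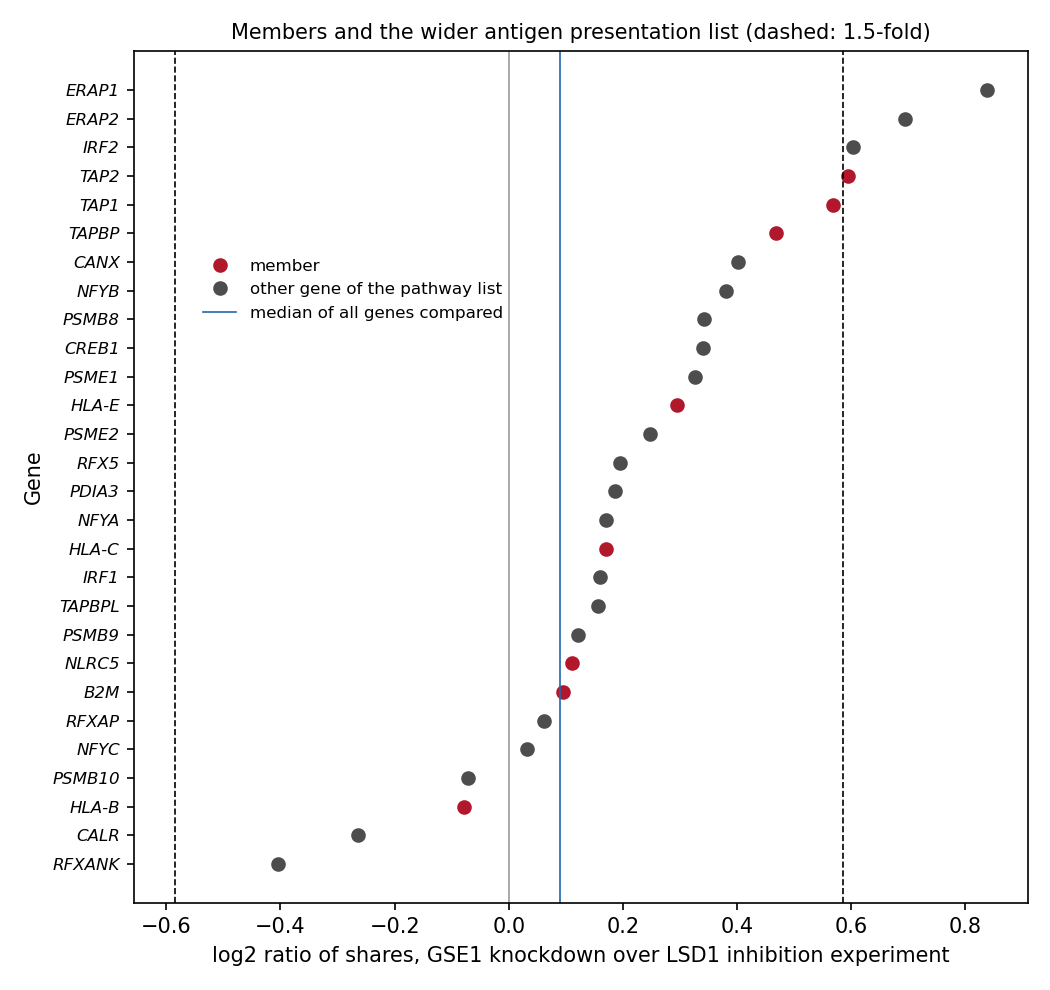
Log2 ratio of shares (knockdown experiment over LSD1 inhibition experiment) for the 8 class I and loading genes compared (red) and the 20 genes of the wider list (grey), in order of the ratio, with the median of all genes in blue and 1.5-fold dashed. ERAP1, ERAP2, IRF2 and TAP2 lie past the upper dashed line, no gene lies past the lower, and each point is a ratio of pooled means with no error available.

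The identity of the cells and the targeted genes were looked at in the same pooled values. Of 9 promyelocytic markers, 8 reached a base mean of 10 in both. MPO, which encodes myeloperoxidase, had base means of 506765 (knockdown) and 824818 (LSD1 inhibition), and ELANE, which encodes neutrophil elastase, was near 0 at 1.10 and 3.87. The markers held 1.32% and 2.09% of the summed base means, of which MPO alone was 1.25% and 2.00%. SPI1, CEBPA and CD33 had ratios of 0.849, 1.05 and 1.07, while 5 of the 8 compared were lower past 1.5-fold in the knockdown experiment, beside 6.94% of all genes. The part of these markers in the ratios above was not tested. Of 12 markers of lymphoid, erythroid, fibroblast and epithelial cells, 7 reached a base mean of 10 in the knockdown experiment and 5 in the LSD1 inhibition experiment. Together they held 0.00373% and 0.00351% of the sums. CD3D at 866 and 869 was the most abundant of them, followed by EPCAM at 432 and 403 and CD79A at 121 and 116. CD3E, MS4A1 and ALAS2 were each below 3. GSE1 had base means of 2963 and 4441, and KDM1A 7648 and 6285. Since each pools control and treated libraries, these values do not check the knockdown.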

How the data were processed

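mRNA-seq libraries of NB4 cells were prepared with the TruSeq RNA v2 kit, which does not mark strand. Per the labels and the study's methods, the authors aligned reads to hg38 with STAR 2.7, quantified them with RSEM and analysed them with DESeq2. The annotation release is not given in the sources used here. The signal values used are base means, which the authors made in DESeq2 by dividing counts by size factors and averaging over all libraries of an experiment, and then deposited. The knockdown table held them in duplicate, equal in 60603 of 60603 genes. The remaining deposited columns hold the authors' own comparisons (log2 fold changes, their errors, statistics and p-values) and were not used. No value per library was used, so depth, replicate error and precision are unknown, and the planned tests of shA1, shB2 and MC2580 against their controls were not run.

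Gene positions and lengths came from GENCODE release 44 by stable identifier (60261 of 60603 genes matched). Of 19975 protein-coding genes, 460 had no coding length and were left out of level ranks. Levels were base means per kilobase of the longest coding transcript, ranked among protein-coding genes whose base mean was 10 or more. Ratios between experiments were ratios of shares of the summed base means, and 1.5-fold was taken as the limit. Promoter windows came from RefSeq (GRCh38.p14). The genes named were all 9 members of the class I set, the targets, and from the wider list the lowest and highest level and ratio, with those past 1.5-fold. The members and lists were chosen with earlier results of these data known. Some genes of the wider list and of the markers are not reported here and were left out of their counts. Alternatives were other lengths, filters, scalings and limits. Python 3.11.15 with pandas 2.3.3 and numpy 2.4.6 was used. The ratio step was run on simulated data with planted 2-fold changes, which does not test ratios near 1.5-fold.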

Additional observations from a re-analysis of the deposited data

How the results depend on the processing

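No paired analysis was possible because the deposited values used here are means over all libraries of an experiment. For the same reason the count-based tests, their alternatives and the omission of single replicates were not run. The median percentile of the class I and loading genes was 81.1 in the knockdown experiment and 80.0 in the LSD1 inhibition experiment when ranked among all protein-coding genes with a base mean above 0, since the ranking then includes genes of very low level. The count of genes higher past 1.5-fold, 1 (TAP2), was 0 with scaling by the median ratio, 0 with a 2-fold limit, and 0 with TAP2 and AL669918.1 summed, the last chosen after the data were seen. In the same settings the share of all genes higher was 11.7% with median scaling and 4.89% with a 2-fold limit. Filters on the base mean and protein-coding totals left the count at 1. Other annotated lengths left the medians of level within 5 percentile points of the reported ones, at 70.5 and 68.5 with the median transcript length. Among single genes, 24 values of level moved by more than 5 percentile points and 42 did not. Among ratios, that of TAP2 summed with AL669918.1 moved by more than 0.1 on the log2 scale; filters and limits leave a gene's own ratio as it is, and median scaling shifts every gene alike. How depth limits these values could not be judged without values per library.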

Other observations

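Genes with a class I fold outside the classical set were looked at after the values above were known, from a list of 18 drawn up after the data were seen. In both experiments 8 of them reached a base mean of 10, and 3 of the 8 had a share higher by over 1.5-fold in the knockdown experiment, beside 15.1% of all genes, with 0 lower. PROCR, which encodes the endothelial protein C receptor, had base means of 146 (knockdown) and 37.9 (LSD1 inhibition), a ratio of 3.90. MICB, a stress-induced ligand of the natural killer receptor NKG2D, had base means of 455 and 175, a ratio of 2.65. MR1, which presents microbial vitamin B metabolites to MAIT cells, had base means of 1205 and 639, a ratio of 1.91. MICA, the close relative of MICB, had 97.6 and 98.3, a ratio of 1.01. CD1D, which presents lipids to NKT cells, had 207 and 142, a ratio of 1.48, and FCGRT, the neonatal Fc receptor, 646 and 602, a ratio of 1.09. The median log2 ratio of the 8 was 0.45, against 0.09 for all genes. These are ratios of pooled means between experiments that differ in virus, time and compound, and no test was possible.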
